A study of Mus musculus with 24 samples.

Results

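Prnp, Serpinf1, Stat4, Antxr2 and Nlrp1a are 5 of the 24421 genes counted in these libraries. They were chosen by their read counts, which were raised against wild type in B cell progenitors that lack both PLCγ isoforms. Their levels were followed here across 2 bone marrow (BM) populations and 4 genotypes, with 3 libraries in each of the 8 groups. All 5 had enough reads to enter every fit, with 14 reads in the lowest library for Prnp and 2397 in the highest for Stat4.

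The cells were common lymphoid progenitors (CLPs), sorted as Lin-IL-7R+, and progenitors of the B lineage, sorted as B220+IgM-IL-7R+ and called B cell progenitors here, all from recipient mice. The genotypes were wild type (WT, PLCgamma1+/+PLCgamma2+/+), Plcg1-/- (PLCgamma1-/-PLCgamma2+/+), Plcg2-/- (PLCgamma1+/+PLCgamma2-/-) and Plcg1-/-Plcg2-/- (PLCgamma1-/-PLCgamma2-/-). Every donor, WT included, carried the MxCre transgene and a Rosa-YFP reporter and had been given poly(I-C), which switches on the interferon-driven Mx promoter and so Cre. Plcg1 was removed in this way from floxed alleles, whereas the Plcg2 null allele was germline. The donors were adult, of both sexes and on a mixed 129xC57BL/6 background, and their BM was placed into lethally irradiated wild-type CD45.1+ hosts, from which CD45.2+ donor cells were sorted. How many donors stood behind the 3 recipients of a genotype is not given in the sources used here, so donor and genotype cannot be told apart, and p-values measure the spread between recipients.

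PLCγ enzymes cleave a membrane phosphoinositide into diacylglycerol and IP3, which in turn activate protein kinase C and release calcium. Of the 5 genes, Prnp encodes the cellular prion protein, which is anchored to the cell surface by a lipid and is found on haematopoietic stem cells and many leukocytes. Antxr2 encodes a membrane receptor for anthrax toxin that also binds extracellular matrix proteins. Stat4 encodes the transcription factor that carries IL-12 receptor signals in T and NK cells. Nlrp1a encodes a sensor that assembles an inflammasome and activates caspase-1, and Serpinf1 encodes pigment epithelium-derived factor, a secreted member of the serpin family that does not act as a protease inhibitor.

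The genes lie on 4 chromosomes of mm10 (GRCm38, GENCODE annotation). Prnp is at chr2:131909928-131938429 on the plus strand, Stat4 at chr1:51987148-52107189 on the plus strand, Antxr2 at chr5:97882783-98031043 on the minus strand, Nlrp1a at chr11:71092236-71144704 on the minus strand and Serpinf1 at chr11:75409769-75422701 on the minus strand. Prnp shares chromosome 2 with the targeted Plcg1 gene and lies 28.8 Mb from it. Plcg2 is on chromosome 8, which holds none of the 5 genes. The strain origin of the chromosome around the Plcg1 allele was not analysed here.

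The sequence just before each start site was searched because the 5 genes were raised in the same cells. The windows were RefSeq promoters of 300 bases (GRCm38.p6), 250 before and 50 after the start, with 6 windows for the 5 genes because Stat4 has 2. The motifs searched on both strands were the STAT-binding GAS element TTCNNNGAA, the NFAT core TGGAAA, the AP-1 element TGANTCA and the E-box CANNTG, without removing overlaps between motifs. No window held a GAS element, which 8.3% of 32851 promoters held. An AP-1 element was found in Prnp alone, at base 149 of its window, and 7.81% of all promoters held one. Prnp alone also held an NFAT core, at base 255, against 21.4% of all promoters. E-boxes occurred in Serpinf1 (4), Stat4 (3 in one window and 1 in the other) and Nlrp1a (2), and not in Prnp or Antxr2, against 72.3% of all promoters. The Antxr2 window was 73% G and C, the others 46% to 60%. These matches describe the letters only and are not evidence of binding.

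Below are the stretches upstream of the annotated gene for Prnp, which had the only AP-1 match, Serpinf1, which had most E-boxes, and Antxr2, which had no match. Capitals mark motif matches. The Prnp stretch is chr2:131909678-131909927 (plus strand), the Serpinf1 stretch chr11:75422702-75422873 (minus strand) and the Antxr2 stretch chr5:98031044-98031267 (minus strand), each read 5′ to 3′ on GRCm38.p6. The NFAT core of Prnp and 2 of the Serpinf1 E-boxes lie past the stretches shown.
Prnp: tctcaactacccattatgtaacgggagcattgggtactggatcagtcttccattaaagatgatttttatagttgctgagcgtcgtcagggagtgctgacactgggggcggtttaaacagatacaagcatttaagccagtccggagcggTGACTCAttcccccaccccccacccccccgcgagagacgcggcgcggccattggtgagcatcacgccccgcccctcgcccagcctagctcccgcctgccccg
Serpinf1: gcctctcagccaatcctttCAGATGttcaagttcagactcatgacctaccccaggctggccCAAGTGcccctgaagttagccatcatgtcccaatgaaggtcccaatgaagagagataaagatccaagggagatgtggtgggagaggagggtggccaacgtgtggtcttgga
Antxr2: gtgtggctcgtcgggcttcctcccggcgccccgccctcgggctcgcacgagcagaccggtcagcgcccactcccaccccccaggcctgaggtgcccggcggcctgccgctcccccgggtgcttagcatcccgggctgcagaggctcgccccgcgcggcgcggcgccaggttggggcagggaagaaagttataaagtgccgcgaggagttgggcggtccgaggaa

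Levels are given as CPM (counts scaled to library size), scaled by TMM over all 24 libraries so that both populations share one scale. Reads on genes ranged from 4232345 to 33219995 in CLP libraries and from 1479582 to 25057223 in B cell progenitor libraries, and 3 reads stood for 0.0909 to 2 CPM. The share of reads outside genes was 17.9% to 45.2% in CLPs and 59.9% to 87.3% in B cell progenitors. The B lineage marker list (11 genes, among them Cd79a and Pax5) summed to 1820 to 7010 CPM across CLP libraries and to 2550 to 7480 CPM across B cell progenitor libraries. The libraries labelled CLP thus held B lineage RNA at levels that overlapped those of the B cell progenitors. Plcg2 RNA was 233 ± 44.1 CPM in WT CLPs and 122 ± 19.2 and 109 ± 9.23 CPM in Plcg2-/- and Plcg1-/-Plcg2-/- CLPs, whereas whole-gene counts of Plcg1 (107 ± 5.86, 107 ± 34.7 and 140 ± 49.3 CPM in WT, Plcg1-/- and Plcg1-/-Plcg2-/- CLPs) did not fall and so do not check its deletion. In both populations Xist was higher in all libraries of the Plcg1-/- and Plcg1-/-Plcg2-/- groups than in those of the WT and Plcg2-/- groups, and Ddx3y was lower in all of them. Sex-linked RNA thus moved with the Plcg1 genotype, and in comparisons of the groups that lack Plcg1 with WT or Plcg2-/- cells the 2 cannot be told apart.

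Serpinf1 was the gene with the clearest separation of the double-deficient cells in both populations. In CLPs it was 43.5, 49.5 and 69.4 CPM in the 3 Plcg1-/-Plcg2-/- libraries, and in WT libraries it was 13.3, 23.9 and 22.1 CPM. The single-deficient CLPs had 23.9, 13.7 and 24.4 CPM (Plcg1-/-) and 31.7, 14 and 25.8 CPM (Plcg2-/-). All 3 double-deficient libraries lay above each of the other 9 CLP libraries, and WT and single-deficient values overlapped. Among B cell progenitors the Plcg1-/-Plcg2-/- libraries had 46.5, 49.3 and 40.9 CPM, against 14, 18.7 and 16.3 CPM in WT, 25.3, 16.6 and 12.7 CPM in Plcg1-/- and 25.9, 24.4 and 18.7 CPM in Plcg2-/-. The lowest double-deficient value was again above all others.

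Prnp was the least abundant of the 5 genes by CPM in WT cells and differed most in fold. WT CLPs had 4.78, 3.41 and 6.81 CPM and Plcg1-/-Plcg2-/- CLPs 9.54, 20.8 and 28.4 CPM. Plcg1-/- CLPs had 8.29, 12 and 17.2 CPM, so all 3 were above WT and inside the range of the double-deficient libraries or just under it. Plcg2-/- CLPs had 4.08, 10.1 and 9.69 CPM and overlapped WT. For B cell progenitors Prnp was 7.28, 6.01 and 5.58 CPM in WT and 12.8, 24.3 and 21.9 CPM in Plcg1-/-Plcg2-/- cells. The single-deficient B cell progenitors were spread between these, with 7.48, 8.24 and 13 CPM for Plcg1-/- and 5.58, 11.2 and 18 CPM for Plcg2-/-, the last resting on 27 reads.

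Stat4 separated the double-deficient libraries from the others in B cell progenitors and not in CLPs. Whether the double-deficient difference from WT was itself unlike in the 2 populations was not tested. In B cell progenitors the 3 WT libraries lay between 33.7 and 34.7 CPM. The single-deficient libraries had 32.6, 32.1 and 41.2 CPM (Plcg1-/-) and 34.3, 27.9 and 48.0 CPM (Plcg2-/-), and the Plcg1-/-Plcg2-/- libraries 52.1, 103 and 78.3 CPM. The double-deficient libraries were above all 9 others, and the other groups overlapped. In CLPs Stat4 was 75.1, 34.4 and 32.2 CPM in WT, 26.9, 75.5 and 37.5 CPM in Plcg1-/-, 33.8, 65.3 and 36.8 CPM in Plcg2-/- and 41.3, 78.6 and 71.3 CPM in Plcg1-/-Plcg2-/- cells. All 4 CLP genotypes overlapped, each holding at least 1 library above 65 CPM.

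Antxr2 varied in CLPs in the same libraries as Stat4. It was 40, 15.6 and 25.4 CPM in WT CLPs, 21.5, 44.2 and 22.8 CPM in Plcg1-/-, 26.6, 34.7 and 21.4 CPM in Plcg2-/- and 34.9, 55.9 and 46.5 CPM in Plcg1-/-Plcg2-/- CLPs. The double-deficient CLPs were above the Plcg2-/- CLPs and overlapped WT and Plcg1-/-. The B cell progenitor replicates were tight, at 22.3, 19.2 and 19.4 CPM in WT, 25.8, 27.0 and 25.5 CPM in Plcg1-/-, 25.9, 22.8 and 27.4 CPM in Plcg2-/- and 33.4, 36.0 and 33.2 CPM in Plcg1-/-Plcg2-/- cells. Both single-deficient groups lay between WT and double-deficient cells without touching either.

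Nlrp1a had the smallest range, from 7.8 to 22.7 CPM over the 24 libraries. WT CLPs had 13, 7.8 and 13.9 CPM, Plcg1-/- CLPs 18.1, 9.81 and 15.4 CPM, Plcg2-/- CLPs 15.9, 12.7 and 18.5 CPM and Plcg1-/-Plcg2-/- CLPs 21.1, 15.7 and 19.7 CPM. Double-deficient CLPs were above WT and overlapped both single-deficient groups. In B cell progenitors Nlrp1a was 9.44, 8.7 and 10.7 CPM in WT, 16.6, 15.8 and 14 CPM in Plcg1-/-, 13.2, 8.74 and 14 CPM in Plcg2-/- and 17.4, 22.7 and 21.2 CPM in Plcg1-/-Plcg2-/- cells. Here the Plcg1-/- libraries were above WT and below the double-deficient ones, and the Plcg2-/- libraries overlapped WT.

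**Figure D1:**
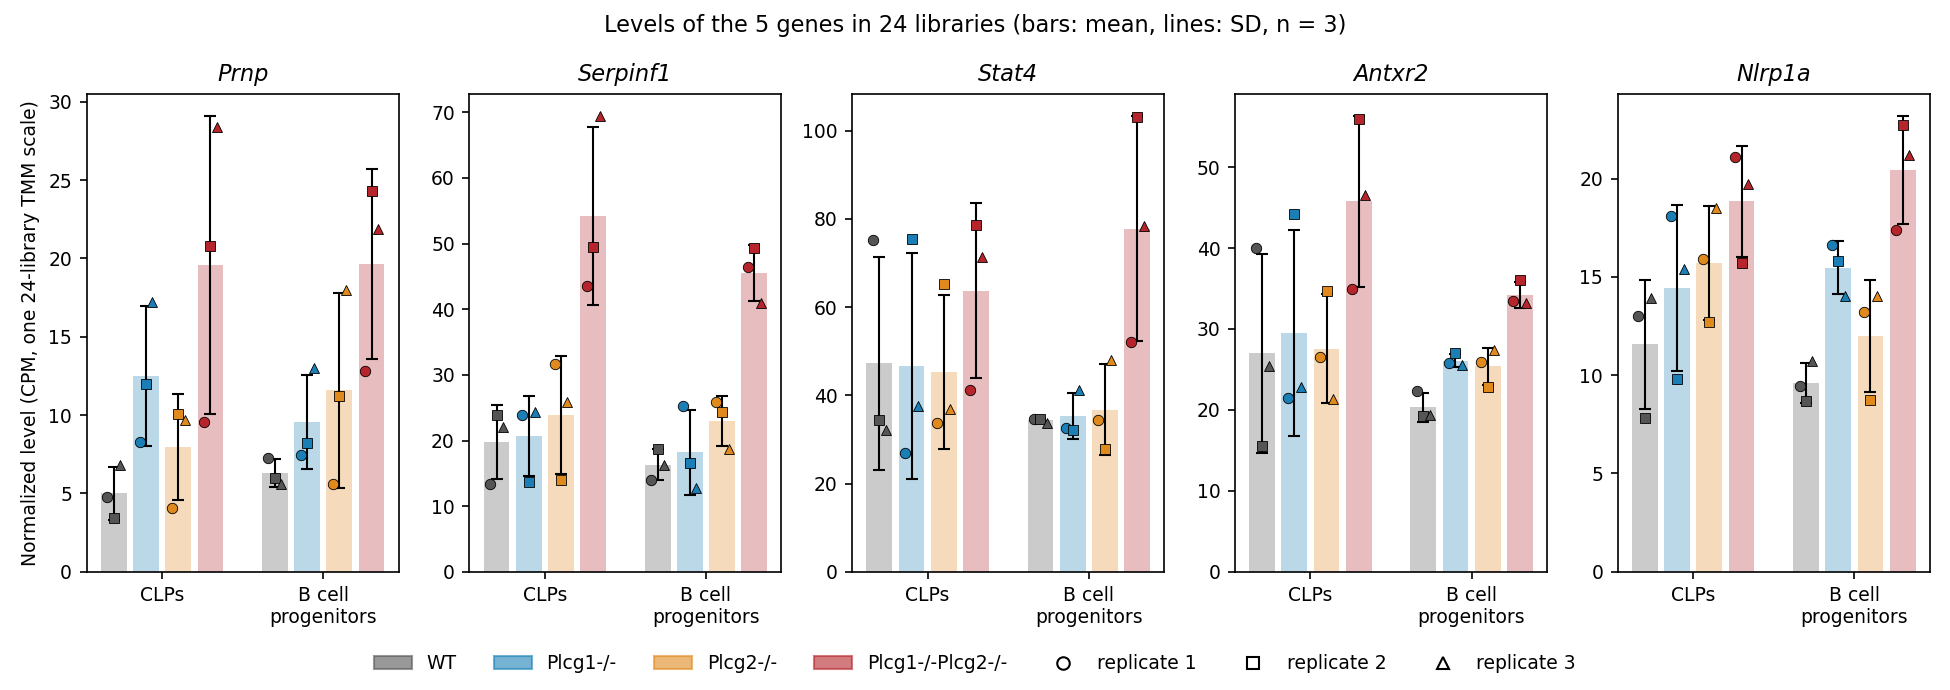
Normalized level in CPM of Prnp, Serpinf1, Stat4, Antxr2 and Nlrp1a in CLPs and B cell progenitors of 4 genotypes; bars are means, lines SD, and each symbol is 1 library, with the shape giving its replicate number. Serpinf1 is at 40.9 CPM or more in the 6 Plcg1-/-Plcg2-/- libraries and at 31.7 CPM or less in the others, whereas the genotypes overlap for Stat4 in CLPs.

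Ordered by group mean, Plcg1-/-Plcg2-/- B cell progenitors and Plcg1-/-Plcg2-/- CLPs held the 2 highest places for each of the 5 genes. Between neighbouring groups in that order the libraries did not overlap at 1 step for Serpinf1, from double-deficient B cell progenitors to Plcg2-/- CLPs. They also did not overlap at 1 step for Antxr2, from Plcg2-/- to WT B cell progenitors. At every other step, and at every step for Prnp, Stat4 and Nlrp1a, neighbours overlapped. Since the genes were chosen for high values in double-deficient B cell progenitors, that order is a description.

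Per kilobase of exon, which allows levels of different genes to be compared, Stat4 was highest in WT B cell progenitors at 8.87 CPM per kb. Serpinf1 followed at 6.92, Antxr2 at 3.05, Prnp at 2.69 and Nlrp1a at 2.31 CPM per kb. In Plcg1-/-Plcg2-/- B cell progenitors Stat4 and Serpinf1 stood at 20.1 and 19.3 CPM per kb, Prnp at 8.39, Antxr2 at 5.14 and Nlrp1a at 4.9. In Plcg1-/-Plcg2-/- CLPs Serpinf1 led at 23 CPM per kb, ahead of Stat4 at 16.5. In sorted bulk RNA, more cells of one kind and more RNA per cell cannot be told apart.

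Plcg1-/-Plcg2-/- against WT B cell progenitors is the comparison by which the genes were picked, so its values are given without a test. The log2 fold change was 1.66 for Prnp (3.15-fold), 1.48 for Serpinf1 (2.79-fold), 1.18 for Stat4 (2.27-fold), 1.09 for Nlrp1a (2.13-fold) and 0.75 for Antxr2 (1.68-fold). The choice of the genes fixed that they would stand among the higher ones here, and nothing is read from their calls. All but Prnp, 4 in number, were among the 33 genes of 15001 (0.22%) called higher, where called means that the edgeR adjusted p did not exceed 0.05 and the log2 fold change was 0.5 or more in size. Serpinf1 had the smallest standard error relative to its difference (0.23), and Prnp the largest error (0.37). The calls changed when single libraries were left out. Of the 5 genes 0 were called without WT replicate 1, WT replicate 3 or double-deficient replicate 2. Without WT replicate 2 or double-deficient replicate 3, 1 was called. Over all fits that left out 1 library, the log2 fold changes were 1.48 to 1.877 (Prnp), 1.386 to 1.591 (Serpinf1) and 0.935 to 1.401 (Stat4). They were 1.01 to 1.197 for Nlrp1a and 0.716 to 0.83 for Antxr2. All 5 had each double-deficient above each WT library, as 9.03% of genes did.

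Loss of either isoform alone gave smaller differences from WT in B cell progenitors, described here with standard errors since these contrasts share the WT libraries. In Plcg1-/- cells the log2 fold change was 0.70 (SE 0.21) for Nlrp1a, 0.62 (0.37) for Prnp, 0.38 (0.14) for Antxr2, 0.18 (0.23) for Serpinf1 and 0.06 (0.24) for Stat4. In Plcg2-/- cells it was 0.85 (0.38) for Prnp, 0.53 (0.24) for Serpinf1, 0.32 (0.14) for Antxr2, 0.28 (0.22) for Nlrp1a and 0.08 (0.25) for Stat4. The Stat4 values of both single-deficient groups were thus smaller than their standard errors. The libraries lay above all 3 WT libraries for Prnp, Antxr2 and Nlrp1a in Plcg1-/- cells, as 8.03% of all genes did, and for Antxr2 in Plcg2-/- cells (4.45% of genes). Against Plcg1-/- cells the double-deficient cells were higher by 1.31 for Serpinf1, 1.13 for Stat4, 1.04 for Prnp, 0.39 for Nlrp1a and 0.37 for Antxr2 (log2), and against Plcg2-/- cells by 0.95, 1.11, 0.80, 0.81 and 0.43 in the same order of genes. In both of these contrasts the libraries did not overlap for Serpinf1, Stat4, Nlrp1a and Antxr2, where 6.31% and 5.77% of all genes were as separate.

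Of the B cell progenitor contrasts, Plcg1-/- against Plcg2-/- used none of the libraries by which the genes were picked. None of the 5 genes was called, where 0.0733% of 15001 genes were. Nlrp1a was 0.43 higher in Plcg1-/- cells (log2, 95% interval -0.05 to 0.91), with its 3 Plcg1-/- libraries above the 3 Plcg2-/- libraries, the nearest pair being equal after rounding, a separation that 2.75% of genes showed. Serpinf1 was lower by a log2 value of -0.35 (-0.87 to 0.16) and Prnp by -0.23 (-1.07 to 0.60). Stat4 (-0.02, -0.56 to 0.52) and Antxr2 (0.06, -0.25 to 0.37) had intervals on both sides of 0.

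In CLPs, whose libraries were not used for the choice, the question was whether the same genes were raised without both isoforms. These CLPs came from the same recipients as the B cell progenitors by which the genes were picked. The CLP values are thus not independent of the choice for any of the 5 genes. All 5 had positive log2 fold changes in Plcg1-/-Plcg2-/- against WT CLPs, as did 45.6% of all genes tested. None was called by edgeR, which called 0.0921% of 15209 genes. Prnp was 3.78-fold higher (95% interval 1.83 to 7.82, log2 1.92, SE 0.48, edgeR adjusted p = 0.248), although the study also drew Prnp as raised in CLPs, so this value is not independent of a choice. Serpinf1 was 2.74-fold higher (1.61 to 4.66, log2 1.46, SE 0.35, edgeR adjusted p = 0.22). With DESeq2, the study's own test, both Prnp (adjusted p = 0.00968) and Serpinf1 (adjusted p = 0.0105) passed, and that test called 169 genes where edgeR called 14.

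The other 3 genes had smaller differences in CLPs. Nlrp1a was 1.6-fold higher (1.04 to 2.47, log2 0.68, edgeR adjusted p = 0.624), Antxr2 1.66-fold (0.963 to 2.85, log2 0.73, edgeR adjusted p = 0.68) and Stat4 1.33-fold (0.68 to 2.6, log2 0.41, edgeR adjusted p = 0.85). Prnp, Nlrp1a and Serpinf1 were higher in each double-deficient than in each WT library, a pattern that 6.27% of all genes showed. Leaving out WT CLP replicate 1 raised the Stat4 log2 fold change to 0.914 and that of Antxr2 to 1.11, with edgeR adjusted p of 0.422 and 0.283. Without WT CLP replicate 3 the Stat4 value was 0.188, and without WT CLP replicate 2 the Antxr2 value was 0.496. The median log2 fold change of the 5 genes was 0.73, against -0.03 over all genes.

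**Figure D2:**
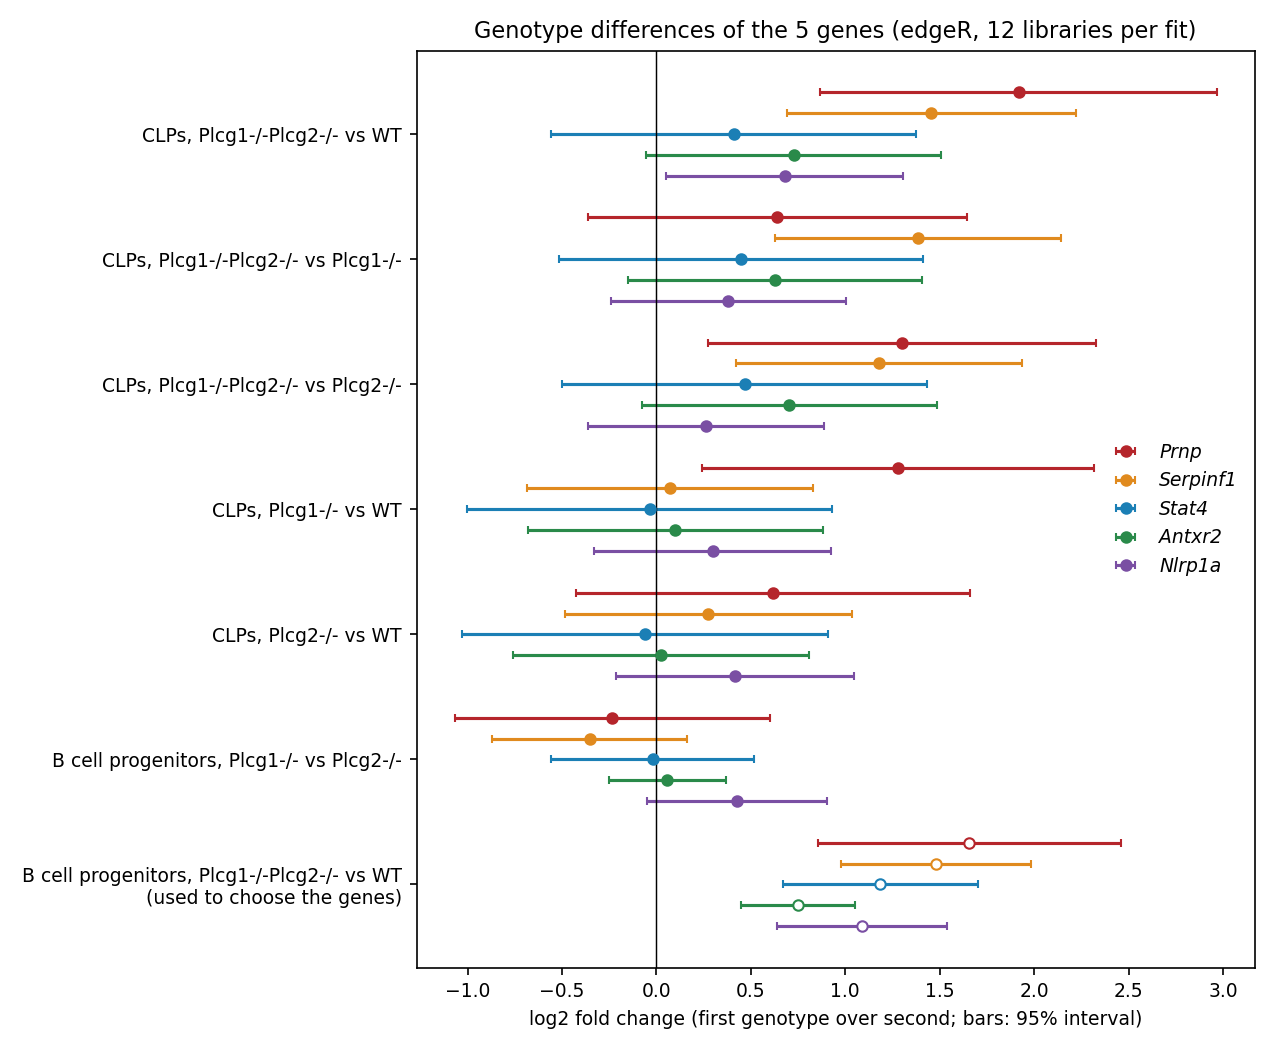
Log2 fold change with 95% interval of the 5 genes in 7 genotype comparisons, from edgeR fits of 12 libraries per population; open symbols mark the comparison used to choose the genes, which is a description only. Intervals of Serpinf1 lie above 0 in all 3 comparisons of Plcg1-/-Plcg2-/- CLPs with another genotype, and those of Stat4 include 0 in all 5 CLP comparisons.

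For Serpinf1 the CLP difference was of similar size against each reference group. It was 2.61-fold against Plcg1-/- CLPs (1.54 to 4.42, edgeR adjusted p = 0.424) and 2.27-fold against Plcg2-/- CLPs (1.34 to 3.83, edgeR adjusted p = 0.506). Neither passed with edgeR, and DESeq2 passed the first (adjusted p = 0.0267). Its libraries did not overlap in either contrast, as 4.33% and 7.32% of genes did not with the double-deficient cells higher. Against WT, Plcg1-/- CLPs differed by a log2 value of 0.07 (SE 0.35) and Plcg2-/- CLPs by 0.28 (0.35). The contrast of double-deficient with Plcg1-/- CLPs compares groups with Xist at 1700 ± 326 and 1820 ± 511 CPM (SD, n = 3), although Ddx3y was 4.09 ± 3.57 and 12.4 ± 6.57 CPM and 0 of 5 sex-linked genes had a positive value, with a median of -1.55.

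Prnp followed another order in CLPs. It was 2.43-fold higher in Plcg1-/- than in WT CLPs (1.18 to 4.98, log2 1.28, edgeR adjusted p = 1), and all 3 Plcg1-/- libraries lay above WT, a separation shown by 3.17% of all genes there and by 3.17% in Plcg2-/- against WT, where none of the 5 genes showed it. In Plcg2-/- CLPs the log2 difference from WT was 0.62 (-0.42 to 1.66). Double-deficient CLPs were higher than Plcg2-/- CLPs by 1.30 (0.27 to 2.33) and than Plcg1-/- CLPs by 0.64 (-0.36 to 1.64). The groups with higher Prnp were those that lacked Plcg1, which were also those with high Xist (1290 to 2310 CPM against 23.6 to 743 CPM in the WT and Plcg2-/- CLPs). The part of the sex-linked difference in the Prnp values cannot be told apart from that of Plcg1.

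Antxr2, Nlrp1a and Stat4 stayed within 0.42 of WT on the log2 scale in both single-deficient CLP groups, with intervals that included 0. Double-deficient CLPs were above Plcg1-/- CLPs by 0.63 (-0.15 to 1.40) for Antxr2, 0.45 (-0.52 to 1.41) for Stat4 and 0.38 (-0.24 to 1.00) for Nlrp1a. Against Plcg2-/- CLPs the values were 0.70 (-0.08 to 1.48), 0.47 (-0.50 to 1.43) and 0.26 (-0.36 to 0.89) in that order. No gene of the 5 was called by edgeR in the comparisons of single-deficient with WT CLPs or of double-deficient with single-deficient CLPs. The background was 0.00658% called in Plcg1-/- against WT, 0% in Plcg2-/- against WT (where edgeR gave 596 genes an unadjusted p under 0.05 and DESeq2 called 11), 0.0263% in the contrast with Plcg1-/- and 0.0526% in that with Plcg2-/-. With the replicate number as a block, which paired the samples in the last 2 contrasts, the genes called rose from 4 to 17 and from 8 to 26, and the 5 genes stayed uncalled.

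Markers of other cells moved with some of these values. In CLPs the library with the most Stat4 and Antxr2 in each of the 4 genotypes was also the one with the highest sum of 12 T, NK and innate lymphoid markers and of 7 CLP markers. These 4 libraries had marker sums of 800, 769, 896 and 506 CPM for T, NK and innate lymphoid genes, while the other 8 CLP libraries had 125 to 474 CPM. In B cell progenitors the sum was 95.3 to 184 CPM in WT and 117 to 250 CPM in Plcg1-/-Plcg2-/- cells, and the double-deficient library with the most Stat4 (103 CPM) had the lowest sum of its group, 117 CPM. Of these 12 markers 2 had positive log2 fold changes in double-deficient against WT CLPs, with a median of -0.47. In Plcg1-/- against WT B cell progenitors 12 did (median 1.54), where the values were 0.06 for Stat4 and 0.38 for Antxr2. In Plcg2-/- against WT B cell progenitors 11 did (median 0.48), with 0.08 for Stat4 and 0.32 for Antxr2. In double-deficient against WT B cell progenitors 11 did, with a median of 0.74. The CLP markers followed Stat4 there, at 1230, 5180 and 3070 CPM in the double-deficient replicates with 52.1, 103 and 78.3 CPM of Stat4. They were at 1560 to 2330 CPM in WT. The B lineage markers kept the same order, at 2760, 7480 and 5710 CPM, against 4050 to 5300 CPM in WT. In B cell progenitors the library with the most Stat4 was the highest in CLP markers in 1 of 4 genotypes. The same held for B lineage markers, in 1 of 4. The part of any of these marker lists in the Stat4 and Antxr2 values was not tested.

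**Figure D3:**
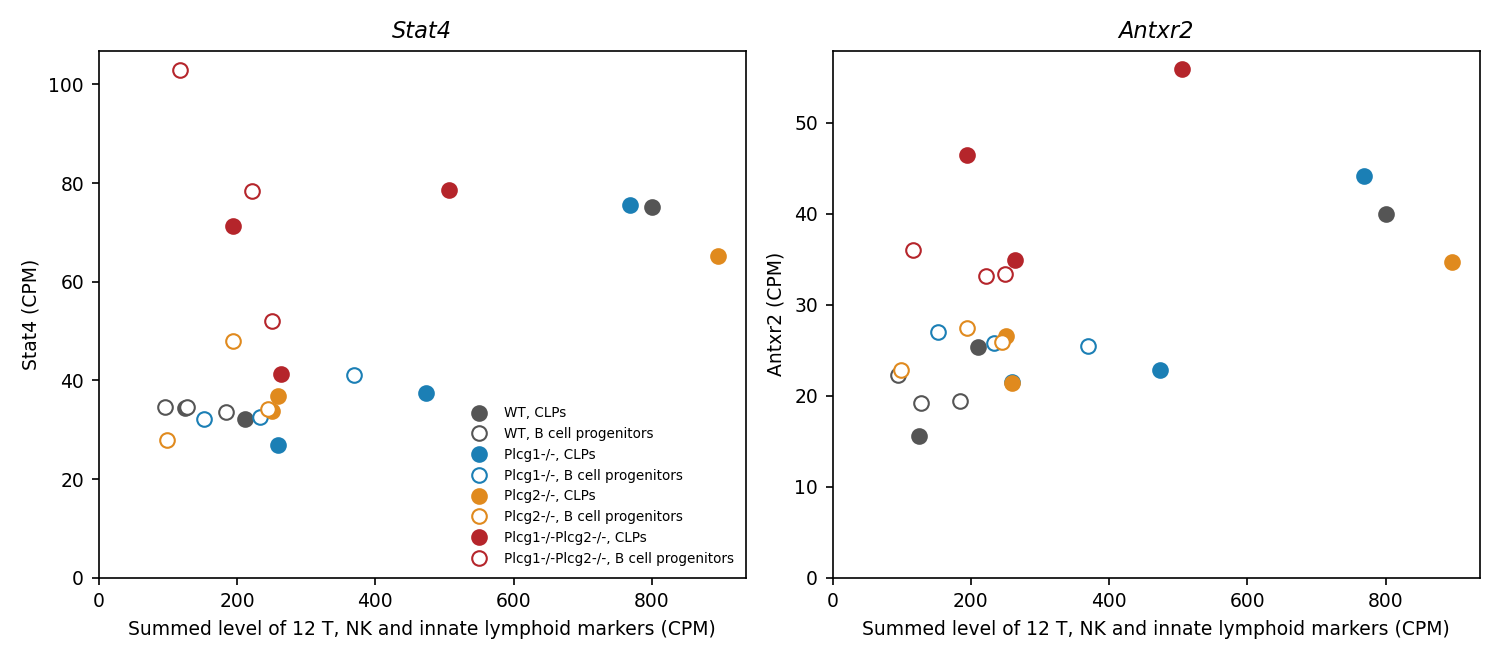
Stat4 (left) and Antxr2 (right) in CPM against the summed level in CPM of 12 T, NK and innate lymphoid marker genes, 1 point per library; filled points are CLPs, open points B cell progenitors, and colours give the genotype. The 4 CLP libraries at 506 to 896 CPM of markers have 65.3 to 78.6 CPM of Stat4, and the Plcg1-/-Plcg2-/- B cell progenitors reach 103 CPM of Stat4 at 117 CPM of markers.

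Myeloid markers were also higher in many mutant libraries. The 7 detected neutrophil markers summed to 1980 to 3120 CPM in WT CLPs and to 3140 to 7040 CPM in Plcg1-/-Plcg2-/- CLPs, and 9 macrophage and monocyte markers to 634 to 1360 and 837 to 2030 CPM. None of these genes was called, and 7 of 7 and 8 of 9 had positive log2 fold changes in CLPs. Single-deficient CLPs reached the same sums, 2490 to 7640 and 2120 to 6890 CPM for neutrophil markers, while their Serpinf1 stayed at 13.7 to 31.7 CPM. The Plcg1-/- CLP library with the highest neutrophil sum, 7640 CPM, had 23.9 CPM of Serpinf1 and 8.29 CPM of Prnp. Stromal markers overlapped, at 550 to 674 CPM in WT and 257 to 1360 CPM in double-deficient CLPs. In 3 of 4 CLP genotypes the library with the most Serpinf1 was also the highest in stromal markers, the exception being the double-deficient CLPs, where the library with 257 CPM of stromal markers had 69.4 CPM of Serpinf1. Likewise, in 3 of 4 CLP genotypes the library with the most Serpinf1 was the highest in B lineage markers, which summed to 2680, 5450 and 7010 CPM in the double-deficient CLP replicates 1, 2 and 3 and to 1820, 5680 and 4500 CPM in WT. Double-deficient against WT B cell progenitors also had positive values for 7 of 7 neutrophil markers (median 0.97), 8 of 9 macrophage and monocyte markers (median 0.92) and 7 of 8 dendritic markers (median 0.72). Their dendritic sums did not overlap, at 1270 to 1680 against 925 to 1060 CPM, and none of these markers was called. In Plcg1-/- against WT B cell progenitors 7 of 7 neutrophil (median 0.98), 9 of 9 macrophage and monocyte (0.68) and 7 of 8 dendritic markers (0.58) were positive. In Plcg2-/- against WT B cell progenitors these were 7 of 7 (0.9), 8 of 9 (0.55) and 6 of 8 (0.27). The part of myeloid, dendritic, stromal and B lineage RNA in the values of the 5 genes was not tested. The haemoglobin genes Hbb-bs, Hbb-bt, Hba-a1 and Hba-a2 had 0 reads in all groups.

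Between populations, the comparison could be tested in the single-deficient groups, which the choice did not use. In Plcg1-/- mice none of the 5 genes was called in B cell progenitors against CLPs, where 3.78% of 17212 genes were, with log2 values from -0.41 (Stat4) to 0.10 (Nlrp1a). The median of all genes in that comparison was shifted by 0.13, so the 5 genes, with a median of -0.18, lay below it. In Plcg2-/- mice the values ran from -0.43 (Nlrp1a) to 0.52 (Prnp) and again none was called, against 3.21% of genes. The intervals were wide, as in Prnp of Plcg2-/- mice with -0.43 to 1.47. They came from a fit that did not pair the 2 libraries of a recipient. Within recipients, Prnp was higher in B cell progenitors in 3 of 3 Plcg2-/- mice, by 0.15 to 0.884. It was higher in 0 of 3 Plcg1-/- mice, with log2 differences of -0.538 to -0.145.

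Relatives and partners of each gene, from lists of the pathway, are given by their counts. Stat4 belongs to a family of 7 STAT factors, all measured. In double-deficient against WT CLPs 0 of 7 were called and 6 had positive values, with a median of 0.18 against -0.03 for all genes. Stat6, which carries IL-4 signals, had in B cell progenitors a value of -0.15 (SE 0.14). Stat5a and Stat5b, which act downstream of IL-7, had values of 0.39 (SE 0.22) and 0.27 (0.22) in B cell progenitors.

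Of 13 genes of the IL-12 and IL-23 pathway 0 were called in double-deficient against WT CLPs, where 4 had positive values and the median was -0.21. The receptor chains Il12rb1 and Il12rb2 stood at 5.94 ± 1.11 and 5.81 ± 2.61 CPM in double-deficient B cell progenitors and at 2.55 ± 0.784 and 3.19 ± 1.09 CPM in WT (SD, n = 3). Single-deficient B cell progenitors, where Stat4 differed little from WT, had similar levels of both. These were 6.7 ± 5.05 and 7.53 ± 3.01 CPM in Plcg1-/- and 5.16 ± 2.21 and 5.1 ± 1.02 CPM in Plcg2-/- cells. The kinases that phosphorylate Stat4 were more abundant, with Jak2 at 160 ± 33.6 and Tyk2 at 91.5 ± 19.4 CPM in the double-deficient cells, against 117 ± 22.8 and 73.9 ± 8.03 CPM in WT. Ifng, a target of Stat4, was at 2.2 CPM in double-deficient B cell progenitors and differed from WT by a log2 value of 0.03 (SE 1.03).

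Nlrp1a has the paralogues Nlrp1b, which lies beside it at chr11:71153102-71230733, and Nlrp1c-ps. In the reference, 1.97% of the 50-base windows of the Nlrp1a transcript were also found in Nlrp1b and 0.311% in Nlrp1c-ps, so reads from those stretches, and from strain alleles that differ from the reference, could be shared. Nlrp1b was 5.24 ± 0.363 CPM in Plcg1-/-Plcg2-/- CLPs and 2.47 ± 0.675 CPM in WT (SD, n = 3), a log2 difference of 1.03 (SE 0.38) that did not pass (edgeR adjusted p = 0.536). Dpp8 and Dpp9, proteases that hold NLRP1 proteins inactive, were at 204 and 131 CPM in double-deficient CLPs and at 163 and 127 CPM in WT, and neither was called. Among 17 inflammasome genes in CLPs 0 were called by edgeR and 12 had positive values, with a median of 0.19. Casp1, the protease the inflammasome activates, was in B cell progenitors 82 ± 7.9 CPM in double-deficient and 44.7 ± 4.86 CPM in WT cells (log2 0.87, SE 0.22). It was not called, and stood at 63.6 ± 14.4 CPM in Plcg1-/- and 56 ± 16.5 CPM in Plcg2-/- cells. Of the 17 genes, which include Nlrp1a, 14 had positive values in double-deficient against WT B cell progenitors (median 0.48). In Plcg1-/- and Plcg2-/- against WT B cell progenitors 17 and 16 did, with medians of 0.7 and 0.48.

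The other members of the prion family were hardly detected. Prnd, the neighbour of Prnp at chr2:131950861-131956130, had 0 reads in double-deficient libraries of both populations, and the read-through gene Prn, which overlaps Prnp, had 10 reads over all 24 libraries. Of 7 tested genes of the prion list 0 were called in CLPs or in B cell progenitors. Proteins known to bind the prion protein were abundant, with Rpsa at 1080 CPM and Stip1 at 243 CPM in Plcg1-/-Plcg2-/- CLPs, against 1260 and 289 CPM in WT, and Lrp1 was at 111 and 76 CPM.

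Antxr1, the second anthrax toxin receptor, was at 1.55 ± 0.306 CPM in Plcg1-/-Plcg2-/- CLPs, far below Antxr2 also per kilobase of exon (0.162 against 6.88 CPM per kb). Of 7 tested genes of the anthrax receptor list 0 were called in double-deficient against WT CLPs. Furin, the protease that cleaves the bound toxin, was at 124 ± 57 and 93.5 ± 41 CPM in double-deficient and WT CLPs, which overlapped. The noncoding genes Gm34226 and Gm42759 overlap Antxr2 and are not in the count tables, so reads from them could be counted to Antxr2, as the library kit does not mark strand. The same holds for Stat4, which the noncoding Gm31812 and the pseudogene Gm3940 overlap.

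Serpinf2, the neighbour of Serpinf1 at chr11:75431732-75439591 and the inhibitor of plasmin, was at 0.447 CPM in Plcg1-/-Plcg2-/- CLPs and 1.18 CPM in WT, a log2 difference of -1.33 (SE 0.68, edgeR adjusted p = 0.697). On the other side, Smyd4 had log2 values of -0.22 (SE 0.20) in CLPs and -0.42 (0.25) in B cell progenitors, so neither neighbour was higher with Serpinf1. Of the proposed receptors of the secreted factor, Plxdc1 was 54.2 ± 15.6 CPM in double-deficient and 29.8 ± 13.4 CPM in WT CLPs (log2 0.86, SE 0.41) and 56.4 ± 27.8 and 26.1 ± 2.65 CPM in B cell progenitors (log2 1.12, SE 0.36). It was not called in either population. Pnpla2, another, was at 99.9 CPM in double-deficient CLPs with a log2 value of -0.15 (SE 0.15). Of 6 clade B serpins, the intracellular branch of the family, 0 were called, and medians were -0.05 in CLPs and 0.48 in B cell progenitors, where Serpinb9 had 1.01 (SE 0.22).

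Across the 24 libraries the genes were not equally alike. As a description, with libraries sharing genotype and recipient, Spearman's rho was 0.717 between Stat4 and Antxr2, 0.666 between Nlrp1a and Serpinf1 and 0.605 between Prnp and Stat4, and it was lowest, 0.21, between Stat4 and Serpinf1. Over 17212 genes, the one most like Serpinf1 was Cacna1i (rho 0.924), which encodes a T-type calcium channel, followed by Irf5 (0.853), an interferon regulatory factor, and Hsd17b11 (0.795). Cacna1i was 206 ± 88.2 CPM in Plcg1-/-Plcg2-/- CLPs, 21.5 ± 8.31 in WT, 23.4 ± 7.92 in Plcg1-/- and 36.3 ± 20.6 in Plcg2-/- CLPs (SD, n = 3). It was 96.6 ± 15 CPM in double-deficient and 21.1 ± 3.41 CPM in WT B cell progenitors. Both genes were highest in the same 6 libraries.

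The genes most like Stat4 were Tbc1d10c (rho 0.904), Tbxa2r (0.901), which encodes the thromboxane receptor, and Sytl1 (0.889). Tbc1d10c, whose product restrains Ras and calcineurin, was 282 ± 115 CPM in Plcg1-/-Plcg2-/- B cell progenitors and 126 to 136 CPM on average in the other 3 genotypes there. Nearest to Antxr2 were Zfp704 (0.91), Lpcat2 (0.849) and Ick (0.845), and to Nlrp1a Gsap (0.898), Hsd17b11 (0.831) and Selm (0.82). Hsd17b11, a lipid droplet enzyme, was thus among the 3 nearest of both Nlrp1a and Serpinf1. Nearest to Prnp were Adgrl2 (0.816), Eif4e3 (0.804) and Emp1 (0.795). Emp1 was 208 ± 90.9 CPM in double-deficient B cell progenitors, 35.5 ± 10.2 CPM in WT, 65.6 ± 23.9 CPM in Plcg1-/- and 35.1 ± 35.7 CPM in Plcg2-/- cells.

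**Figure D4:**
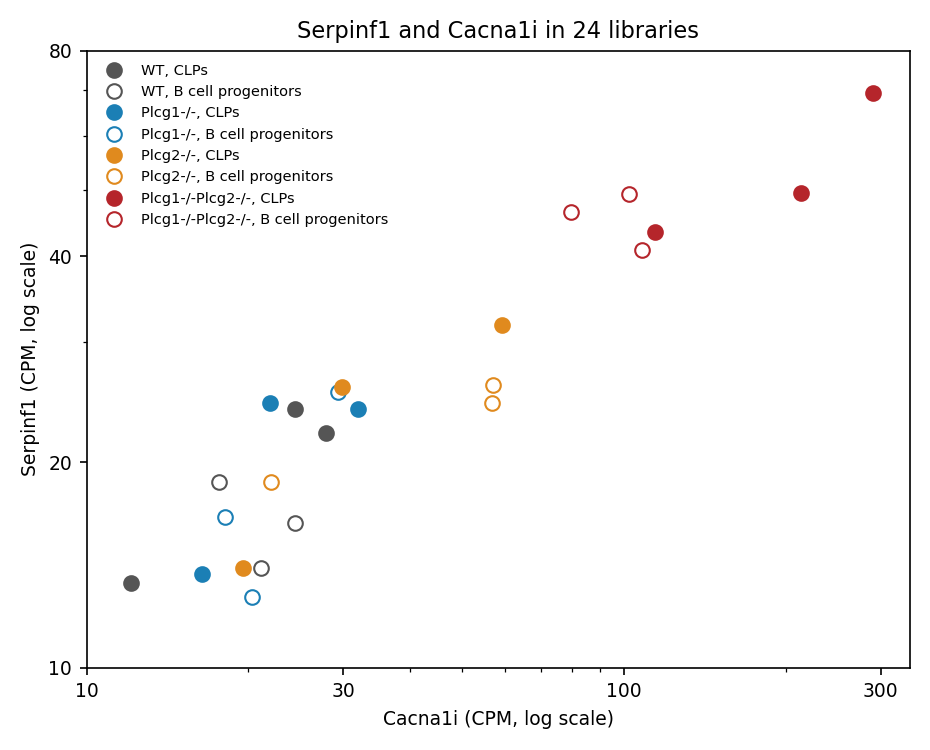
Serpinf1 against Cacna1i in CPM, both on log scales, 1 point per library; filled points are CLPs, open points B cell progenitors, and colours give the genotype. The 6 Plcg1-/-Plcg2-/- libraries are the highest for both genes, with Cacna1i at 79.7 to 290 CPM.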

How the data were processed

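RNA of sorted CLPs and B cell progenitors was made into poly(A)-selected libraries with a kit that does not mark strand. The authors aligned reads with STAR 2.5.0a to mm10 and deposited raw read counts per gene, 1 table per library. The counting program is not given in the sources used here. From the deposited counts, 2 lines that name no gene were left out of library sizes and reported as shares.

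One edgeR quasi-likelihood fit was made per population (12 libraries), with filterByExpr, TMM and Benjamini-Hochberg adjustment over all genes tested. A fit of all 24 libraries served the comparison of populations. Genes were called where the adjusted p did not exceed 0.05 and the log2 fold change was 0.5 or more in size. Alternatives were DESeq2, the authors' test, no filter on low counts, a replicate block, fits of 2 groups alone and leaving out each library. R 4.3.3, edgeR 4.0.16, limma 3.58.1, DESeq2 1.42.0 and Python 3.11.15 were used. Tested on simulated data for double-deficient against WT CLPs, the fit recovered 49% of 200 changed genes with 1 false call among 14839 genes. For Plcg1-/- against Plcg2-/- B cell progenitors it recovered 48% of 200, with 7 false calls among 14483 genes. Between populations in Plcg1-/- mice it recovered 46.5% of 200, with 9 false calls among 16402 genes.

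The 5 genes and the lists were chosen with earlier results of these data known. Named beside the 5 were at most 5 genes per list (called ones, then the most abundant), the 3 genes most like each by rank correlation, and the nearest gene on each side. List genes named outside this rule, namely Stat5a, Il12rb1, Il12rb2 and Ifng, were chosen after their values were seen.

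Libraries with the same replicate number deviated together in double-deficient against Plcg1-/- CLPs (correlations of 0.385, 0.645 and 0.37) and against Plcg2-/- CLPs (0.236, 0.535 and 0.341). They also did in double-deficient against Plcg2-/- B cell progenitors (0.314, 0.26 and 0.207), which were only described. In Plcg1-/- against Plcg2-/- B cell progenitors, a tested contrast, the correlations were 0.715, 0.659 and 0.017. Their mean was 0.464, against -0.243 for pairs of unlike replicate number. The columns give the CLP and B cell progenitor library of one recipient the same code, which pairs the populations. No 2 replicates agreed within sampling noise (chi-square per degree of freedom 9.62 to 147).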

Additional observations from a re-analysis of the deposited data

Results flagged for a closer look

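Prnp differed between populations in opposite directions in the single-deficient groups. In all 3 Plcg1-/- recipients it was lower in B cell progenitors than in CLPs, with log2 differences of -0.538 to -0.145, and in all 3 Plcg2-/- recipients it was higher, by 0.15 to 0.884. The mean difference of Plcg1-/- minus Plcg2-/- recipients was -0.853, with a two-sided exact permutation p = 0.1 over recipients, the smallest that 3 against 3 can give. In the unpaired edgeR fit over 24 libraries the difference was -0.90 (SE 0.63, 95% interval -2.22 to 0.41, unadjusted p = 0.166). With the recipient as a block, a fit added after seeing the data, it was -0.84 (SE 0.35, 95% interval -1.59 to -0.08, unadjusted p = 0.0335). Neither passed after adjustment over 17212 genes (adjusted p = 1 in both). Among the Plcg2-/- B cell progenitors the lowest Prnp level, 5.58 CPM, rested on 14 reads and the highest, 18 CPM, on 27 reads.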

How the results depend on the processing

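Calls depended on the test more than the fold changes did. Between edgeR and DESeq2 the genes called went from 14 to 169 in double-deficient against WT CLPs, from 1 to 16 in Plcg1-/- against WT CLPs, from 0 to 11 in Plcg2-/- against WT CLPs, from 4 to 96 and from 8 to 104 in double-deficient against Plcg1-/- and Plcg2-/- CLPs, from 134 to 444 in double-deficient against WT B cell progenitors and from 650 to 1484 between populations in Plcg1-/- mice. DESeq2 called 2 of the 5 genes against WT and 1 against Plcg1-/- CLPs. With the replicate block the CLP counts against WT, Plcg1-/- and Plcg2-/- were 50, 17 and 26, and the B cell progenitor count was 550.

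Fits of 2 groups alone called 0 genes in double-deficient CLPs against WT, Plcg1-/- or Plcg2-/- CLPs and in Plcg1-/- against WT CLPs, 7 (from 11) in Plcg1-/- against Plcg2-/- B cell progenitors, 238 in double-deficient against WT B cell progenitors, and 222 and 177 (from 552) between populations in Plcg1-/- and Plcg2-/- mice. Without the filter on low counts 7 and 13 genes were called in double-deficient against Plcg1-/- and Plcg2-/- CLPs, and 344 between populations in Plcg2-/- mice.

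Signs turned as follows. With the block Antxr2 was -0.043 in Plcg2-/- against WT CLPs and Stat4 0.002 in Plcg1-/- against Plcg2-/- B cell progenitors. Between populations Nlrp1a was -0.037 in Plcg1-/- mice without the filter and Serpinf1 0.074 in Plcg2-/- mice with the recipient as block. In the difference of the population contrast between Plcg1-/- and Plcg2-/- mice, a recipient block chosen after seeing the data turned Stat4 from -0.061 to 0.05 and Antxr2 from -0.036 to 0.039.

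Leaving out each library gave 0 to 44 genes called in double-deficient against WT CLPs, 0 to 2 and 0 to 1 in Plcg1-/- and Plcg2-/- against WT, 1 to 18 in both comparisons with single-deficient CLPs, 6 to 8 in Plcg1-/- against Plcg2-/- B cell progenitors, 50 to 119 in double-deficient against WT B cell progenitors, and 316 to 1181 and 282 to 419 between populations. Of the 5 genes 0 to 4 were then called in double-deficient B cell progenitors, 0 of them without WT replicate 1, WT replicate 3 or double-deficient replicate 2. Log2 fold changes of double-deficient against WT CLPs stayed positive for all 5 genes, from 0.188 to 0.914 for Stat4, 0.496 to 1.111 for Antxr2, 0.507 to 0.83 for Nlrp1a, 1.222 to 1.625 for Serpinf1 and 1.536 to 2.243 for Prnp. Ranges that crossed 0 were, in Plcg1-/- against WT CLPs, -0.557 to 0.469 (Stat4), -0.3 to 0.484 (Antxr2) and -0.174 to 0.306 (Serpinf1), in Plcg2-/- against WT CLPs, -0.444 to 0.439 (Stat4), -0.232 to 0.399 (Antxr2) and -0.013 to 0.546 (Serpinf1), and in Plcg1-/- against Plcg2-/- B cell progenitors, -0.55 to 0.12 (Prnp), -0.206 to 0.2 (Stat4) and -0.023 to 0.111 (Antxr2). Between populations they were -0.794 to 0.019 (Stat4), -0.497 to 0.117 (Antxr2) and -0.232 to 0.189 (Nlrp1a) in Plcg1-/- mice and -0.406 to 0.158 (Serpinf1) in Plcg2-/- mice. The causes were not tested. Depth limits Prnp and Nlrp1a most, with 14 and 21 reads in their lowest libraries.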
